A study of Brassica oleracea with 12 samples.

Results

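The white center of the variegated kale leaf was compared with the green margin for genes outside the photosynthetic apparatus. These are the genes of the deposited expression table that carry a Gene Ontology (GO) annotation without the terms chloroplast, thylakoid and photosynthesis. They numbered 21808 of 45325 genes, against 848 genes with at least 1 of the 3 terms and 22669 genes without any GO annotation. Of the 21808 genes, 20390 were above 0 in at least 1 of the 6 libraries compared and were tested. The annotation is not complete, since 208 of the 21808 genes still name the plastid or photosynthesis in another term or in their description.

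RNA was sequenced from leaves of 'JC007-2B', a double-haploid line of ornamental kale (*Brassica oleracea* var. *acephala*) whose leaf centers turn white while the margins stay green. The white center (S3_C) and the green margin (S3_S) were taken from leaves at the variegated stage, with 3 independent biological replicates each. Leaves at the stage when the white center begins to form (S2) and leaves that are fully green (S1) also had 3 libraries each. They were used only to follow the same genes. The study describes S2 as a later stage than S1, reached under chilling temperature. The labels call S2 and S1 leaves without veins, while for S3_C and S3_S they give the part of the leaf and do not state whether veins were removed. Every white library is leaf center and every green S3 library leaf margin, so color and position in the leaf cannot be told apart.

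A leaf sector without working chloroplasts lives on sugar imported from green tissue, and its cells still need cell walls, ribosomes, mitochondria and hormone signals made by nuclear genes. Several pathways of the green cell run outside the chloroplast as well. In photorespiration, for example, the glycolate made by Rubisco's reaction with oxygen is passed to peroxisomes and then to mitochondria, and the hydrogen peroxide formed on the way is broken down by catalase.

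Levels are given in FPKM (fragments mapped to a gene, scaled by transcript length and by the library's total), and a fold change is the difference of log2(FPKM + 1), S3_C minus S3_S, which understates the change of low genes. A gene was called higher or lower in limma when its unadjusted p was under 0.05 and its log2 fold change was above 1 or below -1, and the Benjamini-Hochberg adjusted p over all 42625 genes tested is given as padj. As FPKM values are shares of a total, the test was made both on FPKM as deposited and after median-of-ratios scaling, which sets the median gene of every library to a common level. The size factors were 1.155, 1.161 and 1.118 in S3_C and 0.815, 0.942 and 0.869 in S3_S, so that the scaling lowers every S3_C value against S3_S. In the text, rose and fell are used only for genes called in that direction on both scales.

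The S3_C libraries were mostly deeper than the S3_S libraries, with ranges that overlapped. The relative depth read from the smallest values was 1.167 to 1.354 in S3_C and 0.902 to 1.203 in S3_S, with the first S1 library at 1. FPKM summed to 430937 to 435919 in S3_C and 429278 to 444398 in S3_S, a total that does not measure depth. The genes with chloroplast, thylakoid or photosynthesis terms took 4.16 to 4.72% of all FPKM in S3_C and 10.2 to 14.3% in S3_S. Of those genes, 836 were tested, 10 were higher and 191 lower in S3_C on both scales. The genes outside these terms took 53.9 to 55.9% of FPKM in S3_C and 48.2 to 49.7% in S3_S, and 17457 to 17748 of them were above 0 in an S3_C library, against 16897 to 16962 in an S3_S library. How far this shift of shares sets the fold changes as deposited, or depth the number of genes above 0, was not tested. In bulk tissue, fewer cells of a type and less RNA per cell cannot be told apart.

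The scale decided which direction prevailed. As deposited, 1224 genes outside the photosynthetic terms were higher and 425 lower in S3_C, which is 6.0% and 2.08% of those tested, against 5.2% and 2.67% of all genes tested. After median-of-ratios scaling, 508 were higher and 684 lower, which is 2.49% and 3.35%, against 2.2% and 4.26% of all genes. The share of higher genes among those called was thus 74.2% as deposited and 42.6% after scaling. The median log2 fold change was 0.17 as deposited and 0.02 after scaling, against 0.14 and 0.01 over all genes tested. Among genes averaging 1 FPKM or more the shift was larger, with a median of 0.38 as deposited and 0.05 after scaling for the 12485 genes outside the photosynthetic terms.

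No gene was called in opposite directions, and the calls were nested, as a scaling that shifts all genes the same way makes likely beforehand. All 508 genes higher after scaling were also higher as deposited, and all 425 genes lower as deposited were also lower after scaling, so these 508 and 425 genes were called on both scales. The call on both scales thus equals the scaled call for higher genes and the deposited call for lower ones, and adds no second support. The other 716 genes higher as deposited lost the call after scaling, and 259 genes were lower only after scaling. On both scales the share of all genes tested was 2.2% higher and 2.67% lower, so that the genes outside the photosynthetic terms (2.49% and 2.08%) lay close to the background. With padj under 0.05 as well, as deposited 337 genes outside the photosynthetic terms were higher and 211 lower (1.39% and 1.21% of all genes tested passed), and after scaling 88 and 244 (0.373% and 1.48% of all genes). All 3 libraries of 1 tissue lay above all 3 of the other in 501 of the 508 genes and 405 of the 425 genes. Of all genes tested, 24.4% had that order with S3_C above and 6.35% with S3_C below. As the genes were called on these same libraries, the order follows largely from the selection and is no further support. Genes named from the lists or as largest changes had to show no overlap, so it is no result for them either. The number of genes that rose rested partly on single libraries, since it was 819 without S3_C replicate 3 and 861 without S3_S replicate 1, of which 454 and 461 were among the 508. A linear model fitted to each gene, with library size as covariate, called 209 genes higher and 219 lower as deposited. After scaling it called 651 higher and 604 lower. Far fewer genes had the same call on both scales in this model, 43 higher and 34 lower. Of these, 39 and 26 were among the 508 and 425. Of the 103 named genes that were called as deposited, the linear model on that scale kept the call of 9, and the other 94 lost it. Among the 9 were the catalase *Bo3g167210*, *LAC2*, *CESA8*, *GLUC* and *ANAC13*.

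**Figure D1:**
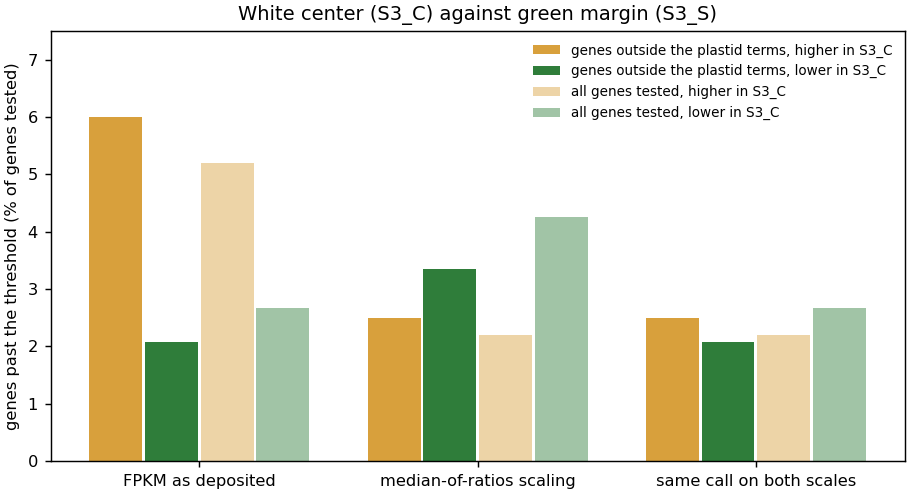
Percentage of genes called higher (yellow) or lower (green) in the white center (S3_C) than in the green margin (S3_S), on the deposited scale, on the median-of-ratios scale and on both; full colours show the genes outside the chloroplast, thylakoid and photosynthesis terms and pale colours all genes tested. Higher genes outnumber lower ones as deposited (6.0% against 2.08%), and the order turns after scaling (2.49% against 3.35%).

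The genes that rose were mostly of low or medium level, while those that fell included many of the most abundant. Of the 508 that rose, 356 had a mean of 1 to 10 FPKM over the 6 libraries and 4 had at least 100 FPKM. Of the 425 that fell, 52 had at least 100 FPKM. Together the 508 genes summed to 9989, 10445 and 8447 FPKM in S3_C, against 3046, 2421 and 1884 FPKM in S3_S. The 425 genes summed to 6224, 4723 and 7113 FPKM in S3_C, against 35260, 26751 and 32223 FPKM in S3_S. As these genes were selected by their direction, the sums describe their size and are no test of it. The decreases were also steeper, with 41 of 425 genes past an absolute log2 fold change of 3, against 11 of 508 among the increases.

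Some genes of auxin signaling rose and none fell. Auxin is the hormone that directs cell expansion, vein formation and organ growth. Of 88 genes with terms for auxin signaling, 17 rose (19.3%, against 2.2% of all genes tested), and their number was 13 to 21 with single libraries left out. The median log2 fold change of the 68 that averaged 1 FPKM or more was 0.90 as deposited and 0.64 after scaling, against 0.32 and 0 over all genes of that level. *Bo5g004400*, described as an auxin-responsive protein, had 19.5, 12.5 and 11.8 FPKM in S3_C, against 1.76, 2.91 and 1.29 FPKM in S3_S. It was several times higher in every white library, with a log2 fold change of 2.39 ± 0.29 (SE, padj = 0.0238 in limma) as deposited and 2.08 (padj = 0.0276) after scaling.

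*Bo1g016790*, another auxin-responsive protein, had 19.8, 21.3 and 18.9 FPKM in S3_C, against 7.17, 2.88 and 2.81 FPKM in S3_S. The auxin response factor *Bo3g148950*, of the family of transcription factors that bind the promoters of auxin-regulated genes, had 21.5, 31.3 and 29.1 FPKM in S3_C, against 3.9, 7.24 and 7.07 FPKM in S3_S. The groups did not overlap for either gene, with log2 fold changes of 2.09 (padj = 0.0342) and 2.02 (padj = 0.0267) as deposited, and 1.74 (padj = 0.0744) and 1.67 (padj = 0.0327) after scaling. The most abundant of those named here, the auxin-responsive *Bo8g115680*, was chosen after its values were seen and had 64.9, 70.0 and 72.8 FPKM in S3_C, against 18.9, 25.0 and 15.5 FPKM in S3_S, with a log2 fold change of 1.78 (padj = 0.0226).

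Carriers that export auxin from cells were also among the genes that rose, and both were chosen after their values were seen. The auxin efflux carrier component *Bo6g112590* had 11.1, 17.2 and 12.6 FPKM in S3_C, against 4.38, 7.93 and 2.74 FPKM in S3_S. *Bo6g116850*, of the same description, had 3.18, 2.99 and 2.1 FPKM in S3_C, against 0.556, 0.851 and 0.368 FPKM in S3_S. Both passed the threshold narrowly after scaling, with log2 fold changes of 1.01 (padj = 0.186) and 1.03 (padj = 0.086), and *Bo6g112590* had the opposite sign (-0.83) in a linear model with a library-size covariate. Other hormone terms had few calls on both scales, where 2.2% of all genes tested were higher and 2.67% lower. At those shares lists of this size hold few calls. None of the 98 genes of the abscisic acid response rose and 3 fell (3.06%). None of 25 gibberellin and 6 ethylene genes passed in either direction. Of 14 cytokinin genes 1 rose (7.14%), and of 22 jasmonic acid genes 1 rose and 1 fell (4.55% each). On the deposited scale the abscisic acid genes summed to 2999.9, 2382.6 and 2620.1 FPKM in S3_C, against 1754.5, 1718.5 and 1737.6 FPKM in S3_S. The median log2 fold change of the 68 that averaged 1 FPKM or more was 0.21 as deposited and -0.11 after scaling. As deposited, 2 abscisic acid, 2 gibberellin, 2 cytokinin and 1 jasmonic acid genes were higher in limma, against 5.2% of all genes.

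Among cell wall genes more rose than fell. Of 173 genes with the term cell wall organization, 14 rose and 5 fell (8.09% and 2.89%, against 2.2% and 2.67% of all genes), and the number that rose was 25 without S3_C replicate 3 and 9 without S3_S replicate 3. Of 111 genes of pectin breakdown and pectinesterases, 6 rose (5.41%) and none fell. The number that rose was 12 without S3_C replicate 3 and 11 without S3_S replicate 1. Medians of the members that averaged 1 FPKM or more were 0.87 and 0.84 for these lists as deposited, and 0.54 and 0.56 after scaling. Only part of each list was expressed at that level, namely 100 of 173 and 40 of 111 genes.

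*XTH7* encodes a xyloglucan endotransglucosylase, an enzyme that cuts and rejoins the xyloglucan chains between cellulose fibrils. It had 10.8, 11.5 and 10.7 FPKM in S3_C, against 2.28, 3.26 and 0.404 FPKM in S3_S. The white libraries were close to each other and all above the green ones, with a log2 fold change of 2.15 (padj = 0.0527) as deposited and 1.86 (padj = 0.098) after scaling. The list of xyloglucan metabolism had 2 of 34 genes that rose (5.88%, against 2.2% of all genes) and none that fell. Both that rose are named here. The second, *XTH10*, had 2.4, 4.3 and 1.71 FPKM in S3_C, against 0.646, 0.504 and 0.23 FPKM in S3_S. The expansin gene *ATEXPA3*, named by its homolog in *Arabidopsis*, where expansins loosen the wall, had 42.9, 85.7 and 16.4 FPKM in S3_C, against 10.0, 9.6 and 2.08 FPKM in S3_S. It spread widely within both tissues and reached padj = 0.109. Like *XTH7* it changed sign in the linear model with a library-size covariate.

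Pectin-modifying enzymes showed the same order. The pectate lyase *Bo6g098620*, which cleaves the pectin backbone, had 7.53, 9.83 and 2.86 FPKM in S3_C, against 1.31, 0.0712 and 0.216 FPKM in S3_S. The pectinesterases *Bo3g110770* and *Bo1g078780*, which remove methyl groups from pectin, were likewise higher without overlap. *Bo3g110770* had 12.0, 18.0 and 5.75 FPKM in S3_C, against 2.6, 2.25 and 0.863 FPKM in S3_S, and *Bo1g078780* had 9.08, 6.23 and 3.87 FPKM in S3_C, against 2.01, 0.511 and 0.35 FPKM in S3_S. Their log2 fold changes were 2.30, 2.09 and 1.95 in this order, each with padj between 0.0632 and 0.0644, so that they passed the unadjusted threshold and not the adjusted one.

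Cellulose synthesis split into genes that rose and genes that fell. Of 47 genes with this term 6 rose and 5 fell (12.8% and 10.6%, against 2.2% and 2.67% of all genes). Without S3_C replicate 3, 12 were higher. *CESA5*, a cellulose synthase of the primary wall in *Arabidopsis*, had 17.0, 15.1 and 6.02 FPKM in S3_C, against 2.2, 2.79 and 1.58 FPKM in S3_S, with a log2 fold change of 2.01 (padj = 0.0537), and it too had the opposite sign in the linear model with a library-size covariate. Among those that fell, *Bo3g185650* had 1.93, 1.02 and 4.86 FPKM in S3_C, against 14.9, 12.9 and 19.1 FPKM in S3_S. A locus that spans *Bo7g109270* and *Bo7g109260* had 0.15, 0.207 and 0.313 FPKM in S3_C, against 5.51, 3.68 and 4.08 FPKM in S3_S. These genes carry the cellulose synthase term without a description, and their log2 fold changes were -2.33 (padj = 0.0439) and -2.14 (padj = 0.0226).

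The xylem markers that were found had higher levels in the white center as deposited. Of 10 xylem markers 4 were found in the table (*CESA4*, *CESA8*, *XCP1* and *IRX9*), and their sum was 15.5, 14.4 and 10.5 FPKM in S3_C, against 3.81, 2.26 and 2.22 FPKM in S3_S (two-sided exact permutation p = 0.1, and 3 against 3 libraries cannot go lower). *CESA8*, a cellulose synthase of the secondary wall in *Arabidopsis*, had 2.98, 2.38 and 2.53 FPKM in S3_C, against 0.524, 0.203 and 0.399 FPKM in S3_S, with a log2 fold change of 1.40 (padj = 0.0306). *XCP1*, a peptidase of xylem vessels in *Arabidopsis*, had 6.56, 7.54 and 4.16 FPKM in S3_C, against 2.2, 0.847 and 0.971 FPKM in S3_S. Both rose on both scales, while *CESA4* was higher as deposited only and *IRX9*, at a log2 fold change of 0.96, was not called. Laccases, which oxidize phenolic compounds and in xylem act in lignin formation, rose in 4 of 16 cases (25.0%, against 2.2% of all genes), a list that was chosen after values were seen. *LAC2* had 4.3, 6.17 and 5.54 FPKM in S3_C, against 0.846, 0.429 and 0.503 FPKM in S3_S, with a log2 fold change of 1.99 (padj = 0.0242).

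The 4 xylem markers were not called between the S2 and S1 leaves without veins, with log2 fold changes of -0.10, 0.17, -0.23 and -0.14 for *CESA8*, *XCP1*, *CESA4* and *IRX9*. The part of vein tissue in the auxin and wall results was not tested. Of the other cell types, 1 of 6 epidermis markers was found (*CER5*, exact permutation p = 0.1, not called in limma). It had 60.6, 76.7 and 115 FPKM in S3_C, against 36.7, 44.4 and 46.0 FPKM in S3_S. Of 6 phloem markers, 1 was matched only by *Bo6g106260*, whose description names it as best match. That gene is projected from another *Arabidopsis* gene, so its overlapping groups (exact permutation p = 0.2) say nothing of phloem. None of 4 guard cell markers was found. All 4 markers of dividing cells were found and summed to 22.7, 17.9 and 19.3 FPKM in S3_C, against 29.5, 17.3 and 19.5 FPKM in S3_S (exact permutation p = 0.8). In the lists of cell cycle and nucleosome genes, 0 of 53 and 0 of 45 were higher and 1 and 0 lower on both scales in limma. Of all genes tested, 2.2% were higher and 2.67% lower, so lists of this size hold few calls. As deposited 2 and 0 were higher, against 5.2% of all genes. Sums of both lists were higher in every S3_C library on the deposited scale. Median log2 fold changes of the cell cycle and nucleosome genes that averaged 1 FPKM or more were 0.44 and 0.50 as deposited. After scaling they were 0.10 and 0.13. Cell cycle genes summed to 642.2, 670.5 and 748.8 FPKM in S3_C, against 419.3, 497.2 and 432.2 FPKM in S3_S. Nucleosome genes summed to 1418.0, 1391.6 and 1419.3 FPKM, against 710.4, 995.1 and 1049.0 FPKM.

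**Figure D2:**
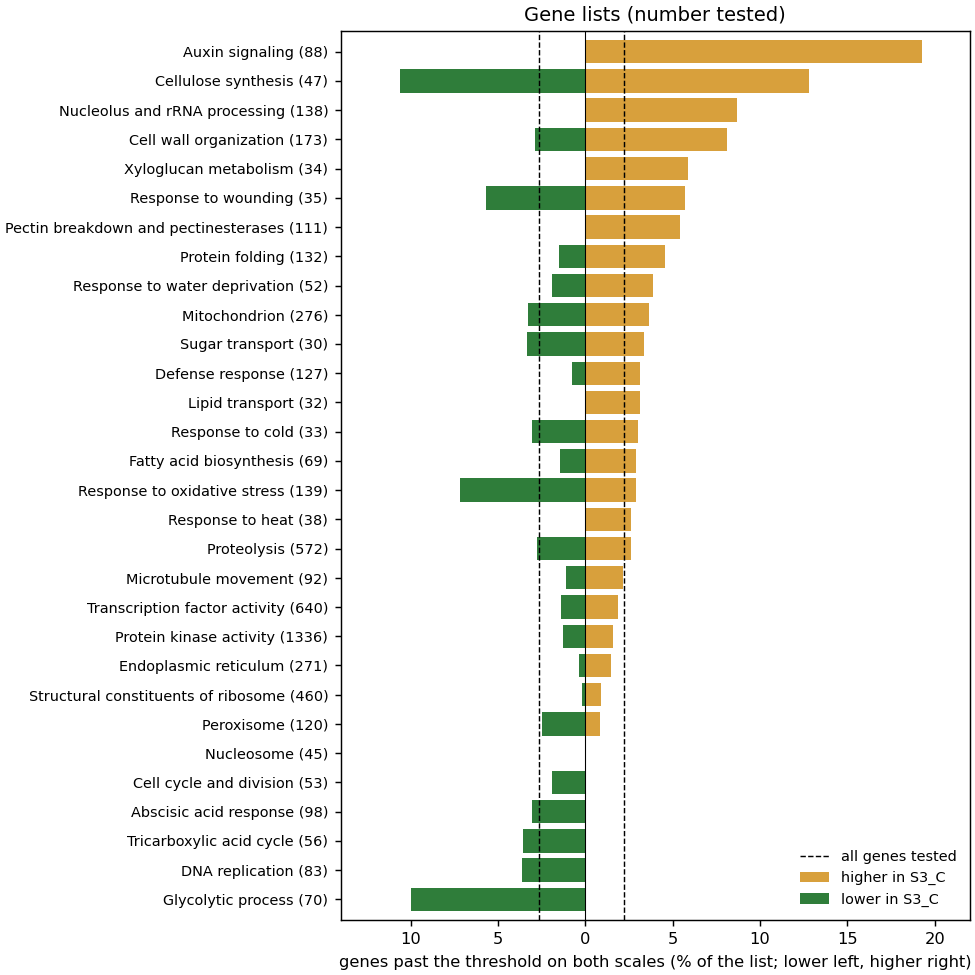
Percentage of the tested genes of each list that were higher (yellow, right) or lower (green, left) in S3_C than in S3_S on both scales, for those of the 48 lists formed by GO term that had at least 30 genes tested, whose number stands in brackets; dashed lines mark all genes tested (2.2% and 2.67%). Among the lists plotted, auxin signaling has the longest bar to the right (19.3%) and glycolytic process (10.0%) and cellulose synthesis (10.6%) the longest to the left.

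Of 138 genes of the nucleolus and rRNA processing 12 rose and none fell (8.7%, against 2.2% of all genes higher), with a median of 0.63 as deposited and 0.31 after scaling at a mean of at least 1 FPKM. This count depended on single libraries more than the auxin count did, being 26 without S3_S replicate 1, 7 without S3_C replicate 2, 6 without S3_S replicate 2 and 4 without S3_S replicate 3. Of 460 structural constituents of the ribosome 4 rose and 1 fell (0.87% and 0.217%, against 2.2% and 2.67% of all genes). The median of this list at a mean of at least 1 FPKM was 0.40 as deposited and 0.04 after scaling. The number that rose was 15 without S3_S replicate 1 and 7 without S3_C replicate 3, and it was 2 without S3_C replicate 1, S3_C replicate 2 or S3_S replicate 3. The 1 that fell became 7 without S3_S replicate 2, 3 without S3_C replicate 1 and 2 without S3_S replicate 1.

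The translation initiation factor 6 gene *Bo4g115530*, whose product in yeast and animals is needed to make the large ribosomal subunit, had 65.2, 102 and 65.3 FPKM in S3_C, against 30.2, 20.6 and 20.4 FPKM in S3_S, with a log2 fold change of 1.65 (padj = 0.0339) as deposited and 1.28 (padj = 0.0803) after scaling. *Bo3g037550*, a homolog of the ribosome biogenesis protein BOP1, had 8.23, 8.29 and 4.58 FPKM in S3_C, against 3.06, 0.717 and 0.563 FPKM in S3_S. *Bo9g078510*, which carries terms for ribosome biogenesis and the nucleolus, was low in both tissues, with 2.7, 3.24 and 1.95 FPKM in S3_C, against 0.0208, 0.15 and 0.284 FPKM in S3_S. All white libraries lay above all green ones for these genes. The ribosomal gene that fell, *Bo4g015900*, is described as 50S ribosomal protein L31, a name used for bacterial-type ribosomes such as those of the plastid, and had 0.483, 5.86 and 1.28 FPKM in S3_C, against 25.4, 8.9 and 10.7 FPKM in S3_S (padj = 0.0992).

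Glucosinolate synthesis, the pathway of the sulfur-rich defense compounds of the cabbage family, held some of the largest increases. *CYP83A1*, a cytochrome P450 that in *Arabidopsis* acts on the aldoximes derived from methionine, had 11.2, 15.2 and 10.2 FPKM in S3_C, against 0.0962, 1.36 and 0.307 FPKM in S3_S. Its log2 fold change was 3.12 ± 0.35 (SE, padj = 0.0232) as deposited and 2.90 (padj = 0.0235) after scaling, and the name stands on 2 assembled genes, so its reads may be divided between copies. The related *CYP83B1*, which in *Arabidopsis* acts mainly on the aldoximes of tryptophan and the aromatic amino acids, was chosen after its values were seen and was opposite in order, with 1.21, 1.49 and 1.53 FPKM in S3_C, against 2.16, 4.97 and 5.16 FPKM in S3_S. It fell by 1.02 on the log2 scale (padj = 0.125) and lost the call without S3_C replicate 1, S3_S replicate 2 or S3_S replicate 3 and in a fit of all 12 libraries.

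In the KEGG pathway of glucosinolate biosynthesis, chosen after values were seen, 5 of 15 genes rose and 1 fell (33.3% and 6.67%, against 2.2% and 2.67% of all genes), and 2 rose and none fell without S3_C replicate 1, S3_S replicate 2 or S3_S replicate 3. *Bo5g113720*, with a term for a branched-chain amino acid transaminase, had 55.5, 7.89 and 18.2 FPKM in S3_C, against 6.73, 0.872 and 0.715 FPKM in S3_S. *Bo2g161100*, with an acyl transferase term, had 58.9, 14.2 and 23.1 FPKM in S3_C, against 6.45, 2.36 and 1.15 FPKM in S3_S. *Bo7g098000*, which has the same acyl transferase term and no pathway, had 67.3, 19.3 and 37.9 FPKM in S3_C, against 7.01, 2.41 and 1.37 FPKM in S3_S. In these genes replicate 1 was the highest of both tissues, and their log2 fold changes were 2.87 (padj = 0.111), 2.89 (padj = 0.0662) and 3.23 (padj = 0.0485) as deposited. *Bo5g113720* lost the call without S3_S replicate 2 or S3_S replicate 3.

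A large increase was that of *Bo1g010490*, a member of the nucleotide-sugar transporter family, whose proteins carry activated sugars into the Golgi and endoplasmic reticulum. It had 15.6, 6.88 and 14.3 FPKM in S3_C and was listed at 0 in all 3 S3_S libraries, so no fold is given. *Bo1g103630*, with a term for calcium ion binding, had 38.6, 44.7 and 26.0 FPKM in S3_C, against 4.6, 3.82 and 2.37 FPKM in S3_S, with a log2 fold change of 3.02 (padj = 0.0175) as deposited and 2.68 (padj = 0.0202) after scaling. *Bo8g040680*, a glycosyltransferase, had 17.9, 33.7 and 17.5 FPKM in S3_C, against 3.44, 2.1 and 0.779 FPKM in S3_S. Each of these was also higher in S2 than in S1 as deposited. *Bo5g008670*, with terms for a zinc-binding transcription factor, had 13.1, 17.7 and 8.29 FPKM in S3_C, against 1.49, 0.372 and 0.454 FPKM in S3_S, and was not called between S2 and S1.

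Further large increases were found in metabolism and transport. The aspartate aminotransferase *Bo4g154210* had 13.9, 8.26 and 10.5 FPKM in S3_C, against 1.36, 0.543 and 0.643 FPKM in S3_S, and *Bo6g119670*, a WAT1-related membrane protein, had 66.4, 77.5 and 29.0 FPKM in S3_C, against 11.1, 10.1 and 4.4 FPKM in S3_S. Of the 30 genes of sugar transport tested 1 rose and 1 fell (3.33% each, against 2.2% and 2.67% of all genes). The one that rose, the SWEET transporter *Bo9g090800*, whose family moves sucrose and hexoses across membranes down their gradient, had 2.44, 2.43 and 3.34 FPKM in S3_C, against 0.248, 0.314 and 0.124 FPKM in S3_S, with a log2 fold change of 1.60 (padj = 0.0245). *Bo6g027680*, with terms for low-affinity nitrate transport, had 42.7, 65.8 and 36.2 FPKM in S3_C, against 9.53, 17.0 and 6.66 FPKM in S3_S. Its log2 fold change of 2.08 (padj = 0.0456) changed sign in the linear model with a library-size covariate.

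Hydrolases were among the most abundant of the named genes that rose. *GLUC*, described as beta glucosidase 25 of the endoplasmic reticulum, had 284, 189 and 415 FPKM in S3_C, against 104, 63.3 and 107 FPKM in S3_S. *GAMMA-VPE*, which in *Arabidopsis* processes proteins in the vacuole, had 104, 33.5 and 95 FPKM in S3_C, against 22.4, 25.6 and 19.2 FPKM in S3_S. Both stayed above padj = 0.05 as deposited (padj = 0.0711 and padj = 0.0972) and were higher in S2 than in S1 too. *ANAC13*, a NAC domain transcription factor whose name stands on 2 assembled genes, had 11.1, 17.9 and 14.6 FPKM in S3_C, against 2.88, 1.81 and 1.94 FPKM in S3_S, with a log2 fold change of 2.26 (padj = 0.022). Transcription factors as a list stood near the background, with 12 of 640 higher and 9 lower (1.88% and 1.41%, against 2.2% and 2.67% of all genes). The 12 became 22 without S3_C replicate 3 and 21 without S3_S replicate 1, and the 9 became 16 without S3_S replicate 1, 14 without S3_S replicate 2 and 5 without S3_S replicate 3.

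**Figure D3:**
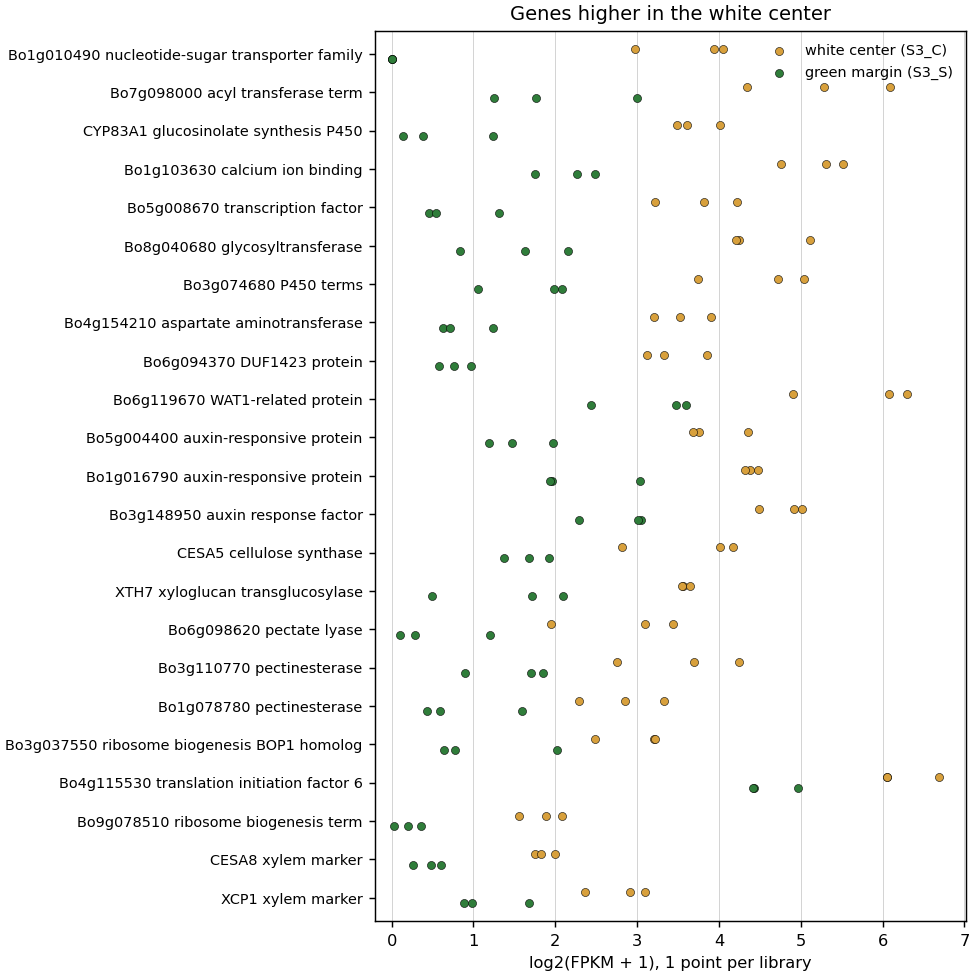
Levels of genes that rose in the white center, as log2(FPKM + 1) with 1 point per library (white center S3_C in yellow, above; green margin S3_S in green). The upper 10 genes are the largest increases among genes called on both scales with padj under 0.05 as deposited, no overlap and an average of 5 FPKM or more, and the points of the 2 tissues do not overlap in any gene shown; *Bo1g010490* is listed at 0 in all 3 S3_S libraries.

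Among the genes that fell were many enzymes of carbon metabolism that work beside photosynthesis. Of the 425, 40 belong to the KEGG pathways of photosynthesis, antenna proteins, carbon fixation or glyoxylate and dicarboxylate metabolism, the pathway that holds photorespiration, against 5 of the 508 that rose. Another 22 name the plastid in words, and either holds for 62. These lists were chosen after values were seen. In the carbon fixation pathway 20 of 64 genes fell and 3 rose, and in the glyoxylate pathway 20 of 69 fell and 2 rose (31.2% and 29.0%, against 2.67% of all genes). The numbers that fell were 18 to 21 and 20 to 21 with single libraries left out, whereas the 3 that rose in carbon fixation were 5 without S3_C replicate 3, 6 without S3_S replicate 1 and 1 when any 1 of the other 4 libraries was left out. The 2 that rose in the glyoxylate pathway were 8 without S3_S replicate 1, 6 without S3_C replicate 3 and 1 without S3_C replicate 1, S3_S replicate 2 or S3_S replicate 3. Without the 40 genes, those that fell summed to 4196, 3229 and 4929 FPKM in S3_C, against 22529, 17615 and 21427 FPKM in S3_S. As all were selected as lower, these sums describe size and test nothing. The 22 genes that name the plastid in words remain in them.

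The steepest decrease was that of *Bo5g155090*, a carbonic anhydrase, the enzyme that interconverts carbon dioxide and bicarbonate. It is described as chloroplastic although its GO terms do not say so. It had 0.497, 0.447 and 0.649 FPKM in S3_C, against 2022, 343 and 1293 FPKM in S3_S, and fell by 9.30 ± 0.64 on the log2 scale (SE, padj = 0.0127) as deposited with a log2 fold change of -9.56 (padj = 0.0117) after scaling. The green libraries differed among themselves severalfold, yet all lay far above the white ones. *Bo8g021860*, of the KEGG pathway of photosynthesis, had 8.99, 5.45 and 7.25 FPKM in S3_C, against 315, 123 and 118 FPKM in S3_S. *Bo6g097380*, an oxidoreductase of the glyoxylate pathway, had 20, 11.3 and 30 FPKM in S3_C, against 469, 425 and 600 FPKM in S3_S, and fell by 4.62 (padj = 0.014).

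Aldolase, which splits fructose bisphosphate in glycolysis and forms it in the Calvin cycle, accounted for the named glycolytic genes that fell. Of 70 genes of the glycolytic process 7 fell (10.0%) and none rose, and 4 of 9 aldolase genes fell (44.4%, against 2.67% of all genes), the second of these lists being chosen after values were seen. *Bo1g045330* had 15.9, 9.44 and 17.0 FPKM in S3_C, against 282, 194 and 265 FPKM in S3_S, and *Bo4g145900* had 17.5, 11.0 and 29.2 FPKM in S3_C, against 439, 168 and 309 FPKM in S3_S. *Bo1g002260* stayed higher, with 58.0, 45.9 and 120 FPKM in S3_C, against 448, 539 and 549 FPKM in S3_S. Their log2 fold changes were -4.06 (padj = 0.0127), -3.92 (padj = 0.0238) and -2.88 (padj = 0.0301). Over the whole glycolytic list, 5 genes were higher as deposited and none after scaling, and the median of the 58 that averaged 1 FPKM or more, aldolases included, was 0.33 as deposited and -0.01 after scaling.

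Catalase and superoxide dismutase, which remove hydrogen peroxide and superoxide, included some of the steepest falls. Among 139 genes of the response to oxidative stress 10 fell and 4 rose (7.19% and 2.88%, against 2.67% and 2.2% of all genes). Without S3_S replicate 2, 2 rose. The catalase *Bo3g167210* had 0.141, 0.0201 and 0.193 FPKM in S3_C, against 37.4, 17.9 and 30.6 FPKM in S3_S, and *Bo7g117190*, also a catalase, had 7.01, 4.29 and 19.5 FPKM in S3_C, against 95.3, 118 and 144 FPKM in S3_S. Their log2 fold changes were -4.67 (padj = 0.0127) and -3.64 (padj = 0.029). The superoxide dismutase *Bo1g039700* had 2.78, 7.72 and 12.2 FPKM in S3_C, against 273, 394 and 394 FPKM in S3_S, and fell by 5.53 (padj = 0.0156). Of 7 catalase genes 3 fell (42.9%, against 2.67% of all genes) and none rose, also with any single library left out, and their median log2 fold change was -0.55 as deposited and -0.94 after scaling. The 7 genes together summed to 2045, 1949 and 2964 FPKM in S3_C, against 2885, 3544 and 3544 FPKM in S3_S. Of 9 superoxide dismutase genes 2 rose and 2 fell (22.2% each, against 2.2% and 2.67% of all genes), with 1 higher when any library but S3_S replicate 1 was left out. Unlike catalase, these 9 genes summed higher in the white center as deposited. The sums were 853.1, 1074.6 and 1130.6 FPKM in S3_C, against 835.5, 784.4 and 789.6 FPKM in S3_S, and were not taken after scaling. The median log2 fold change of the 8 superoxide dismutase genes that averaged 1 FPKM or more was -0.05 as deposited and -0.42 after scaling. Both of these lists were chosen after values were seen.

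Malate dehydrogenases, which interconvert malate and oxaloacetate, fell in 5 of 16 cases (31.2%, against 2.67% of all genes), a list chosen after values were seen. *PMDH2*, the peroxisomal form, had 0.529, 0.841 and 0.503 FPKM in S3_C, against 42.6, 9.72 and 20.6 FPKM in S3_S, and *Bo2g009460* had 79.3, 53.3 and 96.3 FPKM in S3_C, against 528, 385 and 488 FPKM in S3_S. Their log2 fold changes were -3.74 (padj = 0.0276) and -2.63 (padj = 0.0238). Both stand in the list of the tricarboxylic acid cycle, where they were the only 2 of 56 genes that fell and none rose, and the median of that list was 0.45 as deposited and 0.07 after scaling at a mean of at least 1 FPKM. Of 276 genes with mitochondrial terms 10 rose and 9 fell (3.62% and 3.26%), near the 2.2% and 2.67% of all genes, and the 10 were 21 without S3_S replicate 1 and 5 without S3_C replicate 1, S3_C replicate 2 or S3_S replicate 3.

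Outside carbon metabolism, some genes of light and stress responses, water transport and growth control fell. *Bo6g097240*, a B-box zinc finger protein, a family of transcription regulators with several members in light signaling of *Arabidopsis*, had 0.247, 0.394 and 1.8 FPKM in S3_C, against 33.5, 55.1 and 40.6 FPKM in S3_S. It fell by 4.67 (padj = 0.014) and was not called between S2 and S1, where its log2 fold change was 0.15. The aquaporin *PIP1A*, a water channel of the plasma membrane, had 1.92, 1.18 and 3.02 FPKM in S3_C, against 10.5, 24.2 and 22.9 FPKM in S3_S. *ICK1*, an inhibitor of cyclin-dependent kinases, had 13.8, 7.43 and 11.4 FPKM in S3_C, against 25.1, 25.8 and 40.5 FPKM in S3_S.

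*CORI3*, of the tyrosine transaminase family and annotated to the jasmonic and abscisic acid responses, had 18.2, 9.08 and 19.2 FPKM in S3_C, against 62.1, 61.8 and 106 FPKM in S3_S. It fell by 2.25 (padj = 0.0357), whereas its log2 fold change was 1.16 in S2 against S1, not called. *NFU5*, which in *Arabidopsis* is a scaffold of iron-sulfur clusters in mitochondria, had 4.52, 3.65 and 19.1 FPKM in S3_C, against 83.5, 56.2 and 63.8 FPKM in S3_S. Lipoxygenases, the first enzymes of oxylipin synthesis, moved in both directions. *Bo6g079880* had 16.6, 8.65 and 25.4 FPKM in S3_C, against 189, 64.0 and 107 FPKM in S3_S, and fell by 2.74 (padj = 0.049), with the opposite sign in the linear model with a library-size covariate. *Bo6g098790* had 7.02, 7.16 and 10.8 FPKM in S3_C, against 1.41, 2.09 and 2.19 FPKM in S3_S, and rose by 1.68 (padj = 0.0319).

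**Figure D4:**
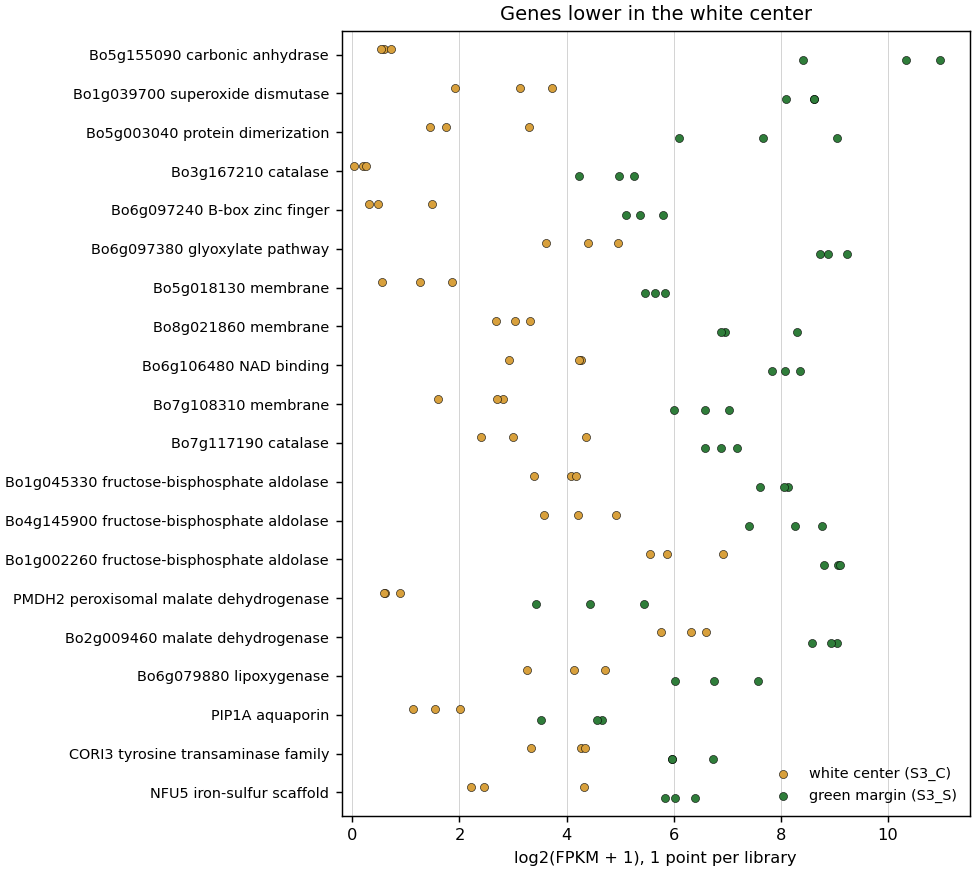
Levels of genes that fell in the white center, as log2(FPKM + 1) with 1 point per library (white center S3_C in yellow, above; green margin S3_S in green). The upper 10 genes are the largest decreases among genes called on both scales with padj under 0.05 as deposited, no overlap and an average of 5 FPKM or more, led by the carbonic anhydrase *Bo5g155090* with 0.447 to 0.649 FPKM in S3_C and 343 to 2022 FPKM in S3_S; the points of the 2 tissues do not overlap in any gene shown.

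The same genes were followed in S2 against S1, in libraries that share no sample with the sectors. S2 is the stage at which white appears in the leaf center, and S1 leaves are fully green. As S2 is also the later stage and was reached under chilling, whitening, stage and temperature cannot be told apart in this comparison. Of the 508 genes that rose in S3_C, 507 were tested there and 131 were higher in S2 as deposited (25.8%, against 7.02% of all genes tested), while 3 were lower. After median-of-ratios scaling 70 were higher (13.8%, against 2.47% of all genes) and 12 were lower. Of the 425 genes that fell in S3_C, 93 were lower in S2 as deposited (21.9%, against 2.04% of all genes) and 13 higher, and after scaling 152 were lower (35.8%, against 4.28%) and 6 higher. The 93 became 57 without S2 replicate 1. The median log2 fold change in S2 was 0.59 for the genes that rose and -0.69 for those that fell, against 0.23 for all genes outside the photosynthetic terms, and 0.16 and -1.07, against 0.01, after scaling.

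Counts by list in S2, as deposited, were as follows. Of the 17 auxin genes that rose in the white center 4 were higher in S2, of the 12 nucleolar genes none, and of the 14 cell wall organization genes 5, where 7.02% of all genes tested were higher. Of the 20 genes of the carbon fixation pathway that fell 11 were lower in S2, and of the 20 of the glyoxylate pathway 9, where 2.04% of all genes tested were lower. Whether these shares differ from each other was not tested. Among single genes, *CYP83A1* was level in S2 and S1 (log2 fold change 0.03), while *Bo7g098000* and *Bo8g040680* were higher in S2 by 2.18 and 3.44, and the photosynthesis gene *Bo8g021860* was lower in S2, with a log2 fold change of -3.12.

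**Figure D5:**
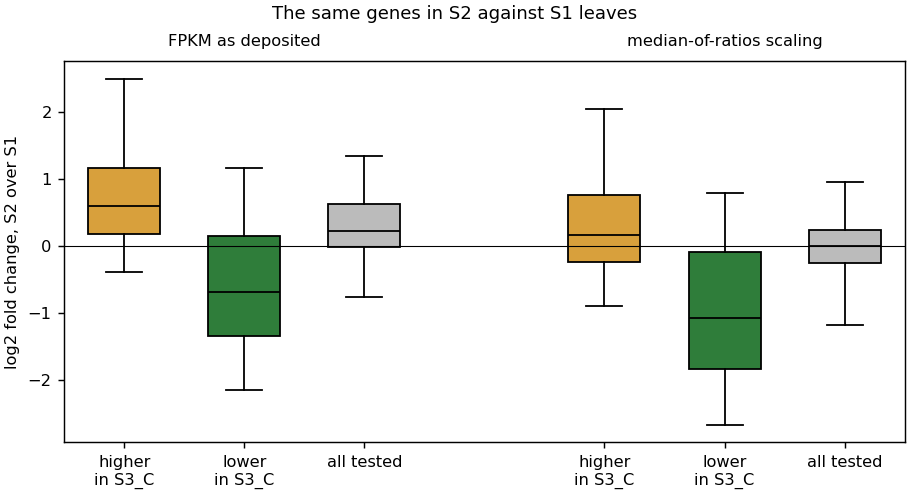
Log2 fold change of S2 over S1 leaves, on log2(FPKM + 1), for the genes that were higher (yellow) or lower (green) in S3_C on both scales and for all tested genes outside the photosynthetic terms (grey); boxes span the quartiles with the median as a line and whiskers the 5th to 95th percentile. The medians are 0.59, -0.69 and 0.23 as deposited and 0.16, -1.07 and 0.01 after median-of-ratios scaling.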

How the data were processed

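Poly(A) RNA of 6 libraries of the leaf sectors and 6 of leaves without veins was sequenced by the study in paired-end mode. The authors removed low-quality reads, mapped the rest with HISAT2 2.0 (a version from the submitters' processing notes) to the Ensembl Plants (release 38) assembly of *B. oleracea*, allowing 2 mismatches and 20 alignments of a read, and assembled transcripts with StringTie 1.3.0. The deposited values are FPKM per gene. They hold no read counts, and a read that fits several gene copies can be divided among them.

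Genes above 0 FPKM in at least 1 library of a comparison were fitted with limma 3.58.1 (lmFit, eBayes with trend) in R 4.3.3 on log2(FPKM + 1), two-sided, without covariates, and p-values were adjusted over all of them. Size factors came from genes above 0 in all 6 libraries. The script was tested on simulated data. Sums of markers were compared with exact permutation tests in scipy 1.17.1, with pandas 2.3.3 and numpy 2.4.6, and figures were drawn with matplotlib 3.10.9.

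The 48 lists were formed by GO term. Genes were named by rule. The first part held the 10 genes with the largest increase and the 10 with the largest decrease. Each was called on both scales with padj under 0.05 as deposited, a mean of at least 5 FPKM and no overlap between tissues. The second held up to 3 genes per list, called on both scales without overlap at a mean of at least 1 FPKM. The third held 30 cell type markers, of which 10 were matched, the phloem marker only by a best match in a description. From these, genes with a description or term of known role were given in full. Genes, lists and markers were chosen with earlier results of these data known. Lists and genes marked as chosen after values were seen were added later. Identifiers are those of the table. Promoter motifs were planned and not run, since no sequence of these genes was used here. The alternatives were another pseudocount, other filters, scalings and gene sets, a replicate block, a fit of all 12 libraries, leaving out each library, and a linear model per gene with the library-size covariate of Ballgown.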

Additional observations from a re-analysis of the deposited data

How the results depend on the processing

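Counts are of genes outside the photosynthetic terms, higher and lower in S3_C. As deposited, 1224 and 425 became 337 and 211 with padj under 0.05, 209 and 219 in the linear model with a library-size covariate, 2188 and 949 with the genes without GO annotation added, and 2475 and 681 with a pseudocount of 0.1; quantile normalization gave 596 and 597. After median-of-ratios scaling, 508 and 684 became 88 and 244, 928 and 1551, and 1277 and 1052 with the adjusted p, the added genes and the pseudocount. The linear model gave 651 and 604 on that scale. On both scales, 508 and 425 became 1277 and 675 with that pseudocount and 43 and 34 in the linear model, whose covariate, the sum of log2(FPKM + 1) below the 75% quantile, uses a degree of freedom of 6 libraries. With single libraries left out, the ranges were 891 to 1770 and 360 to 479 as deposited, 383 to 861 and 559 to 783 after scaling, and 383 to 861 and 360 to 479 on both scales, 819 without S3_C replicate 3 and 861 without S3_S replicate 1 being the high ones. The cause of these differences was not tested. In S2 against S1, the 131 higher and 93 lower genes were 95 to 145 and 57 to 138 with single libraries left out, and 70 and 152 after scaling. Genes that name the plastid, or the KEGG pathways of photosynthesis and photorespiration, could be left out with 1216 or 1211 higher and 403 or 385 lower as deposited. Alternatives on both scales, the S2 libraries left out and the KEGG pathways were added after seeing the data.

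Of 110 named genes, 103 were called as deposited. The linear model kept 9 of these calls and lost 94, among which 86 kept their sign and 8 reversed it, namely XTH7 (-0.18), CESA5 (-0.19), Bo7g100800 (-0.37), Bo8g097590 (0.41), Bo6g027680 (-0.52), Bo6g079880 (0.37), ATEXPA3 (-1.12) and Bo6g112590 (-0.83). The other settings reversed none of them. Libraries of the same replicate number deviated together with correlations of 0.097 to 0.421 and other combinations with -0.433 to 0.21, and the sources used here do not say that a number marks a shared plant. The replicate block gave 1386 and 470 as deposited, 629 and 750 after scaling, and 629 and 470 on both scales, with 499 and 420 genes shared, and changed none of the named genes' calls. Depth limits low genes, and FPKM give no counting interval.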
